A study of Mus musculus with 6 samples.

Results

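Immediate early genes are the first genes that a cell transcribes after a stimulus, within minutes and without new protein synthesis. Growth factors, stretch, calcium entry and ischaemia reach their promoters through MAP kinases, serum response factor (SRF) with its ETS partners, and CREB, and most of their transcripts are short-lived. Their products are mainly transcription factors: FOS and JUN proteins pair as AP-1, EGR proteins are zinc finger factors, NR4A proteins are orphan nuclear receptors, ATF3 is a stress-induced factor of the CREB/ATF family, MYC pairs with MAX at E-boxes, and IER2 is a small nuclear protein of the early growth response. A set of 10 of these genes was followed: Fos, Fosb, Jun, Junb, Atf3, Egr1, Egr2, Nr4a1, Myc and Ier2. Each was chosen by name, and its value is taken from the brightest probe set, by the mean of all arrays, of those annotated to that gene alone. Of the 10 genes, 9 had such a probe set, among 30176 genes on the array that did, and 8 passed the filter on low signals, among 17492 genes tested. Junb had no probe set of its own, because its probe set carries a second gene symbol, Prdx2, and it is given no value.

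The MI samples were peri-infarct tissue of male C57BL/6 mice, taken 4 weeks after ligation of the left anterior descending coronary artery. The sham samples were the matching region of male C57BL/6 mice 4 weeks after the operation without ligation. Each group held 3 arrays of the Affymetrix mouse transcriptome array 1.0, hybridised with total RNA of left ventricle, and the question here was whether immediate early transcripts differed between the groups and how far the arrays of 1 group differed from each other. Both groups were operated on under the anaesthetic avertin. No allele, treatment after surgery or age is named for either group, and the time of day of collection and the interval between excision and freezing are not given in the sources used here. Nothing states that the 3 samples of a group came from separate hearts, so the p-values measure the spread between these samples.

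All values are log2 signals as deposited, on which a difference of 1 is a 2-fold change, and levels were not compared between genes. Array medians were 4.44 to 4.52 in MI and 4.43 to 4.44 in sham, and 2 arrays correlated at 0.977 to 0.996 over the transcript probe sets. The array carries 23 background control probe sets, and the brightest of them read between 5.12 and 6.08 depending on the array. Their median was 2.69 to 2.96, and a signal at background here is one at or below the brightest control of its array. At the bright end, the top signal was 19.93, with 867 to 1065 probe sets of an array above 16. With 3 arrays against 3, the smallest p that a two-sided exact permutation test can give is 0.1, so tests came from limma across 32979 probe sets, with Benjamini-Hochberg adjustment over all of them and a call at an adjusted p under 0.05. The 10 cardiomyocyte markers of the label were present on every array: their mean log2 signal was 17.34 to 17.49 in MI and 17.64 to 17.66 in sham, and none of them averaged at background. A pair of genes typical of atrial muscle, Myl7 and Sln, were high in sham 2 and sham 3 only, and their values stand beside Nr4a1 below.

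The stretch around the start site is shown for 4 genes that the results turn on: Fos, the namesake of the AP-1 partners, Egr2, the one gene called, Atf3, the stress factor that binds CREB-type sites, and Nr4a1, the gene with the widest spread. Each runs from 250 bases before to 50 bases after the annotated start, 5′ to 3′ on the gene's strand, from RefSeq on GRCm38.p6, and capitals mark matches to the motifs described next.
Fos, chr12:85473640-85473939, plus strand: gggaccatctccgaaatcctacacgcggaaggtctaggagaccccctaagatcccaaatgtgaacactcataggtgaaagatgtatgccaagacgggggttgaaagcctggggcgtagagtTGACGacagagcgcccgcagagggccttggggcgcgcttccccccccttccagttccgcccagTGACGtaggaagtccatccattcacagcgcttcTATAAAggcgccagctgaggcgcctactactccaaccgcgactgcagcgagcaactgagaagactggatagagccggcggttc
Egr2, chr10:67537619-67537918, plus strand: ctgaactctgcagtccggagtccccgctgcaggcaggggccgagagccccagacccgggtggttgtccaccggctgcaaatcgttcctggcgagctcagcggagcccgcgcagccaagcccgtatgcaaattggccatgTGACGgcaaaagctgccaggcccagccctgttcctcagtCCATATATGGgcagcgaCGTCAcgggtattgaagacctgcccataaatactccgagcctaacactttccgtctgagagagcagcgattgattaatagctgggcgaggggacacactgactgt
Atf3, chr1:191183284-191183583, minus strand: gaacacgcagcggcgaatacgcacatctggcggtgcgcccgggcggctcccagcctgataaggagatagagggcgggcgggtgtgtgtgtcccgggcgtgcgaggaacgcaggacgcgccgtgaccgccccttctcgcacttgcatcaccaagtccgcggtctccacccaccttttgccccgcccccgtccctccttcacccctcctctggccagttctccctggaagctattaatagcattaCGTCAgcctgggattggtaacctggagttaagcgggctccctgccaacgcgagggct
Nr4a1, chr15:101266596-101266895, plus strand: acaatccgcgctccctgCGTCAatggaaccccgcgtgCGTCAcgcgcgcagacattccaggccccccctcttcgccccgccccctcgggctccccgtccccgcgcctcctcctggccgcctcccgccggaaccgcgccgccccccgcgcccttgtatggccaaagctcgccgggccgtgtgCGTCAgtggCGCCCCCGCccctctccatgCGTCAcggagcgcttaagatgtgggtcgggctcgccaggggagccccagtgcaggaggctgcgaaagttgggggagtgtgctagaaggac

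Such windows were at hand for 7 of the 10 genes, which are these 4 with Fosb, Jun and Junb, but not Egr1, Myc and Ier2. Egr2 had 5 annotated starts, of which the middle one is printed. Each window was searched on both strands for the TATA box TATAAA, the CRE core TGACG, the AP-1 site TGANTCA, the CArG box that SRF binds, the E-box CACGTG and the EGR site GCGNGGGCG. In the printed windows no matches overlapped. The CRE core was found in 6 of the 7 genes, against 20.8% of all 32851 windows of this length. In Fos it lay 129 and 66 bases before the start, followed by a TATA box at 33 bases. In Egr2 it lay 111 and 55 bases before the start, on either side of a CArG box at 72 bases. Atf3 held it 7 bases before the start. Nr4a1 held it 4 times, at 233, 213, 69 and 40 bases, with an EGR site at 60 bases. Of all windows, 13.6% held the TATA box, which Fos and Junb had, 1.63% the CArG box, which only Egr2 had among the 7, and 5.55% the EGR site, which Fosb and Nr4a1 had. The E-box, in 7.15% of all windows, occurred at the first of the Egr2 starts, and the AP-1 site, in 7.81% of all windows, in none of the 7 genes. Sites more than 250 bases before the start lay outside the windows and were not searched. Egr2 was searched at 5 starts and each other gene at 1, while the shares are per window. A match is a match of letters and does not show that a factor was bound.

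The mean signal was higher in MI than in sham for 9 of the 9 genes with a value, against 52.0% of all probe sets tested. The median difference of the 8 tested genes was 1.17 on the log2 scale, against 0.01 over all probe sets tested, and 5 of the 8 (Fos, Atf3, Egr1, Egr2 and Nr4a1) differed by at least 1 on that scale, although Fos and Egr2 had all 3 sham arrays at background. Egr2 was the only one of the 8 called higher, and none was called lower, while 2.97% of all probe sets tested were called higher and 3.64% lower. These shares stand for 980 probe sets higher and 1200 lower, which were 835 and 1570 after centring each array on its median and 750 and 1512 after quantile normalization. At an unadjusted p under 0.05, 5 of the 8 genes passed, as did 8150 of all 32979 probe sets tested. In 6 of the 9 genes with a value, and in 5 of the 8 tested, the lowest MI array was above the highest sham array, an arrangement found in 15.0% of all probe sets tested. In whole tissue, a difference in the number of cells of a type and a difference in RNA per cell cannot be told apart.

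**Figure D1:**
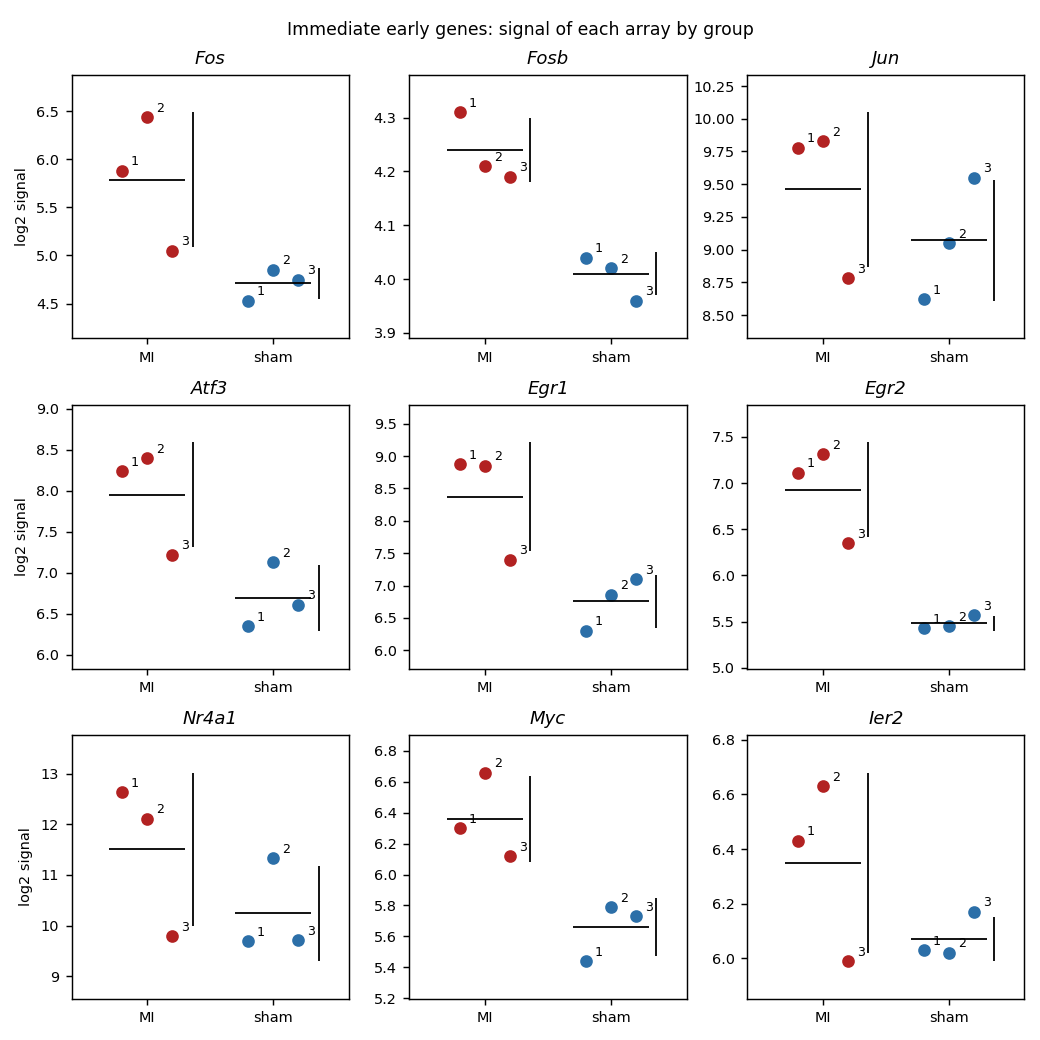
Log2 signal (vertical axes, a separate scale for each gene) of the 9 immediate early genes with a value, in the 3 MI arrays (red, left) and the 3 sham arrays (blue, right), numbered by replicate, with the mean as a horizontal line and 1 SD on either side as a vertical bar. MI 3 is the lowest MI array in 9 of 9 panels, and Jun, Nr4a1 and Ier2 are the panels in which the groups overlap.

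Fos encodes the AP-1 subunit that pairs with JUN proteins and whose promoter is shown above. Its signals were 5.88, 6.44 and 5.05 in MI 1, 2 and 3, and 4.53, 4.85 and 4.75 in sham 1, 2 and 3. The groups did not overlap, but MI 3 lay only 0.20 above the highest sham array, and all 3 sham arrays and MI 3 read below the highest background control of their array. The mean was 5.79 ± 0.70 in MI and 4.71 ± 0.16 in sham (SD, n = 3 each), a difference of 1.08 (SE 0.34, 95% limits 0.25 to 1.91) that did not pass in limma (adjusted p = 0.12). With every sham array at background, this difference gives no firm fold change.

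Fosb, the paralogue of Fos, read near background on every array and fell below the filter. Its signals were 4.31, 4.21 and 4.19 in MI and 4.04, 4.02 and 3.96 in sham, all of them under the highest background control. The groups were separated by 0.15. Without the filter the difference was 0.23 (SE 0.08, limma adjusted p = 0.234).

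Jun encodes the main partner of FOS and also binds as a homodimer. Its signals were 9.78, 9.83 and 8.78 in MI and 8.62, 9.05 and 9.55 in sham. The groups overlapped: sham 2 and sham 3 lay within the range of the MI arrays, and MI 3 lay below the sham mean. The means were 9.46 ± 0.59 in MI and 9.07 ± 0.46 in sham (SD, n = 3 each), and the difference of 0.39 had 95% limits of −0.48 to 1.26 (limma adjusted p = 0.546).

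Atf3 is induced by metabolic and oxidative stress and by injury. Its signals were 8.24, 8.40 and 7.22 in MI and 6.35, 7.13 and 6.61 in sham. MI 3 and sham 2 were 0.09 apart, and that gap closed after median centring of the arrays, so the separation of the groups rests on the scaling. The means were 7.95 ± 0.64 in MI and 6.69 ± 0.40 in sham (SD, n = 3 each), a difference of 1.26 (SE 0.36, 95% limits 0.39 to 2.13), or 2.39-fold, with a limma adjusted p of 0.0944.

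Egr1, a zinc finger factor of vascular and cardiac injury responses, had the largest difference of the 8 tested genes. Its signals were 8.87, 8.85 and 7.40 in MI and 6.30, 6.86 and 7.10 in sham. MI 1 and MI 2 stood well above every other array, and MI 3 lay 0.29 above sham 3. The means of 8.37 ± 0.84 in MI and 6.76 ± 0.41 in sham (SD, n = 3 each) differed by 1.62 (SE 0.44, 95% limits 0.54 to 2.70), or 3.07-fold, with a limma adjusted p of 0.0858.

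Egr2, also known as Krox20 and best known from myelinating Schwann cells and from myeloid cells, was the gene that passed the test. Its signals were 7.11, 7.31 and 6.35 in MI and 5.43, 5.45 and 5.57 in sham. The lowest MI array lay 0.78 above the highest sham array, the widest gap among the 9 genes, and the 3 sham arrays, but no MI array, read below the highest background control of their array. The means were 6.93 ± 0.51 in MI and 5.48 ± 0.08 in sham (SD, n = 3 each), and Egr2 rose by 1.44 (SE 0.25, 95% limits 0.83 to 2.05), with a limma adjusted p of 0.0311. With each sham array set to its brightest background control where that was higher, the MI mean was at least 2.23-fold higher. The call was lost without MI 1 (adjusted p = 0.122), MI 2 (0.0821), sham 1 (0.0916), sham 2 (0.122) or sham 3 (0.109), and the difference stayed between 1.25 and 1.73 whichever array was left out.

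Nr4a1 encodes NUR77, a ligand-independent nuclear receptor whose transcript responds to catecholamines and calcium. Its signals were 12.63, 12.11 and 9.79 in MI and 9.69, 11.33 and 9.71 in sham. The groups overlapped: MI 3 lay close to sham 1 and sham 3, and sham 2 lay well above the other sham arrays. The means were 11.51 ± 1.51 in MI and 10.24 ± 0.94 in sham (SD, n = 3 each). The difference of 1.27 had the widest limits of the 8 tested genes, −0.75 to 3.28 (limma adjusted p = 0.396). It was 2.12 without MI 3 (adjusted p = 0.0637) and 0.71 without MI 1 (adjusted p = 0.697).

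Sham 2 was also the highest sham array for the other NR4A receptors. Nr4a2 had signals of 7.89, 7.73 and 6.73 in MI and 6.20, 7.20 and 6.23 in sham, and Nr4a3 had 7.69, 7.28 and 6.21 in MI and 5.57, 6.85 and 6.20 in sham. In both, MI 3 lay below sham 2, as it did for Nr4a1. Of the atrial genes, Myl7, the atrial regulatory light chain, read 4.70, 4.51 and 4.78 in MI and 4.95, 11.19 and 8.43 in sham, and Sln, sarcolipin, read 4.57, 5.13 and 4.31 in MI and 4.46, 10.25 and 7.45 in sham. Sham 2 was thus the sham array with the highest level of both atrial genes and of the 3 NR4A receptors. Sham 3, also high in Myl7 and Sln, lay above sham 1 by 0.02 for Nr4a1, 0.04 for Nr4a2 and 0.63 for Nr4a3. Of the other atrial genes, Myl4 read 5.26, 5.19 and 5.31 in MI and 5.22, 5.87 and 5.90 in sham, and Stard10 read 7.38, 7.13 and 7.31 in MI and 7.64, 8.20 and 7.93 in sham. Both were thus also higher in sham 2 and sham 3 than in sham 1. Bmp10 lay near background on every array. Nppa, atrial natriuretic peptide, which failing ventricle also makes, was the only one of the 5 tested atrial genes that was called, and it was higher in MI. The mean log2 signal of the 6 atrial genes was 7.55, 7.55 and 7.52 in MI and 7.24, 9.68 and 8.48 in sham. Their summed log2 signal, 19.79 to 19.93 in MI and 17.68 to 19.00 in sham, is almost that of Nppa alone, which in MI was at the top of the scale. Without sham 2 the Nr4a1 difference was 1.81 (adjusted p = 0.352), and the part of atrial tissue in it was not tested.

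**Figure D2:**
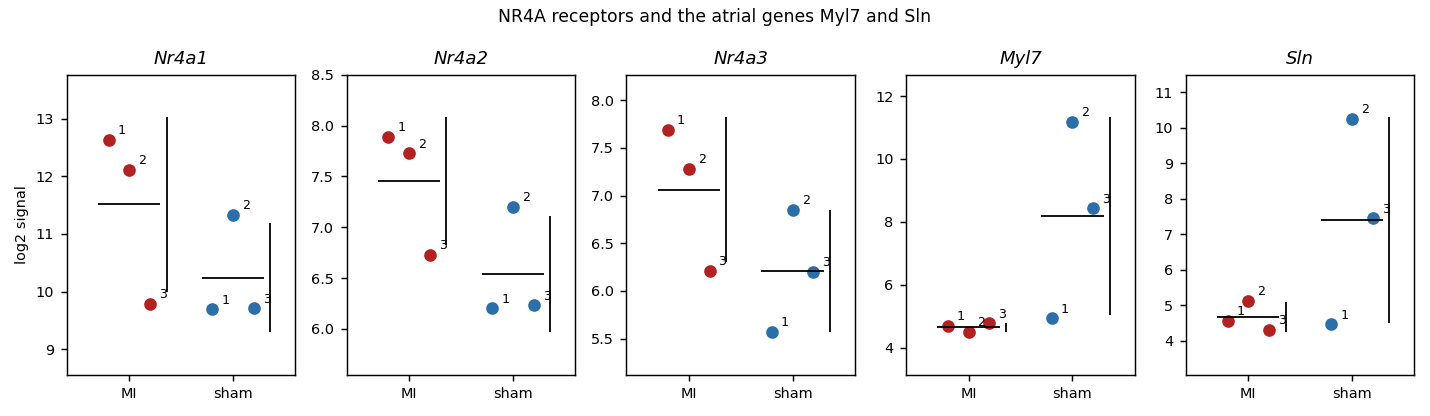
Log2 signal (vertical axes, a separate scale for each gene) of the 3 NR4A receptors and of the atrial genes Myl7 and Sln in the 3 MI arrays (red, left) and the 3 sham arrays (blue, right), numbered by replicate, with the mean as a horizontal line and 1 SD on either side as a vertical bar. Sham 2 is the highest sham array in each of the panels, with 11.33 for Nr4a1 and 11.19 for Myl7.

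Myc drives growth and ribosome production together with MAX. Its signals were 6.30, 6.66 and 6.12 in MI and 5.44, 5.79 and 5.73 in sham. The groups did not overlap and were 0.33 apart. The means of 6.36 ± 0.28 in MI and 5.66 ± 0.19 in sham (SD, n = 3 each) differed by 0.71 (SE 0.17, 95% limits 0.28 to 1.13), or 1.63-fold, with a limma adjusted p of 0.0676. As 2 of the 3 sham arrays read at or below the highest background control of their array, that fold is not firm.

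Ier2 had signals of 6.43, 6.63 and 5.99 in MI and 6.03, 6.02 and 6.17 in sham. MI 3 lay below every sham array, so the groups overlapped. The difference of 0.28 had 95% limits of −0.15 to 0.70 (limma adjusted p = 0.378).

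**Figure D3:**
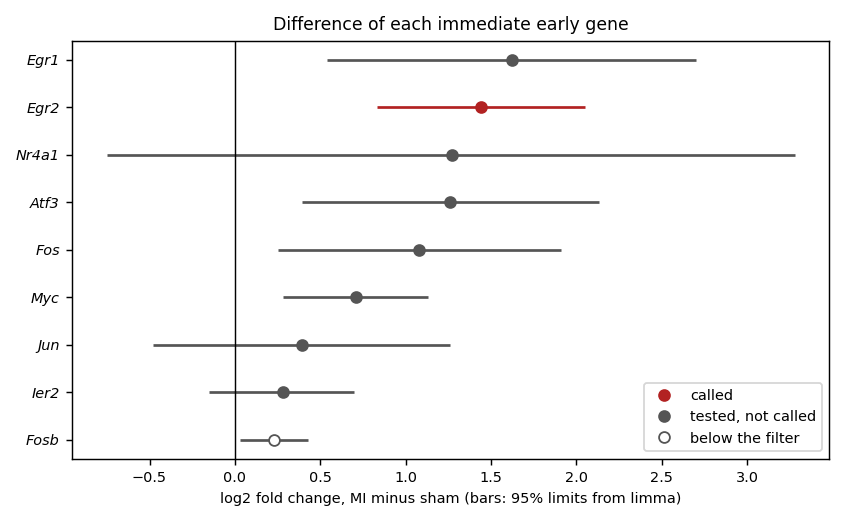
Difference in mean log2 signal, MI minus sham (horizontal axis), of the 9 immediate early genes with a value (rows, by size of the difference), with 95% limits from limma as bars. Egr2 (red) is the gene called, the open circle is Fosb below the filter, and the limits of Nr4a1, Jun and Ier2 include 0.

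The arrays of the MI group differed from each other in these genes more than the sham arrays did. The SD was larger in MI than in sham for 9 of 9 genes, which was the case in 62.8% of all probe sets tested. The median SD was 0.59 in MI and 0.19 in sham over the 9 genes, and 0.18 in MI and 0.14 in sham over all probe sets tested. MI 3 was the lowest MI array for 9 of 9 genes, against 37.5% of all probe sets tested, and this held after centring each array and after quantile normalization. The highest MI array was MI 2 for 6 genes and MI 1 for 3. Within sham, sham 1 was the lowest array for 7 of 9 genes, and the highest was sham 2 for 4, sham 3 for 4 and sham 1 for 1.

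The distance of MI 3 from the sham mean, as a share of the distance of the mean of MI 1 and MI 2, differed between genes. It was 23.7% for Fos, 30.5% for Egr1, 32.4% for Atf3, 50.3% for Egr2 and 56.1% for Myc. For Jun, Nr4a1 and Ier2 MI 3 lay below the sham mean, by 0.30, 0.45 and 0.08 on the log2 scale. MI 3 was thus between the other MI arrays and the sham mean in the first 5 genes, and below the sham mean in the other 3. Without MI 3, limma called 5 of the 8 genes higher, at a background of 6.84% of all probe sets tested. These were Egr1 (difference 2.10, adjusted p = 0.00844), Egr2 (1.73, 0.00189), Atf3 (1.62, 0.0156), Fos (1.45, 0.0128) and Myc (0.83, 0.0343). Leaving out sham 1 as well, a choice made after seeing the data, also gave 5 calls, while 2159 of all 32979 probe sets were called higher. Without MI 1, MI 2, sham 1, sham 2 or sham 3 alone, limma called 0 of the 8 genes. MI 3 was the lowest MI array for each of these genes, so leaving it out raises every difference.

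**Figure D4:**
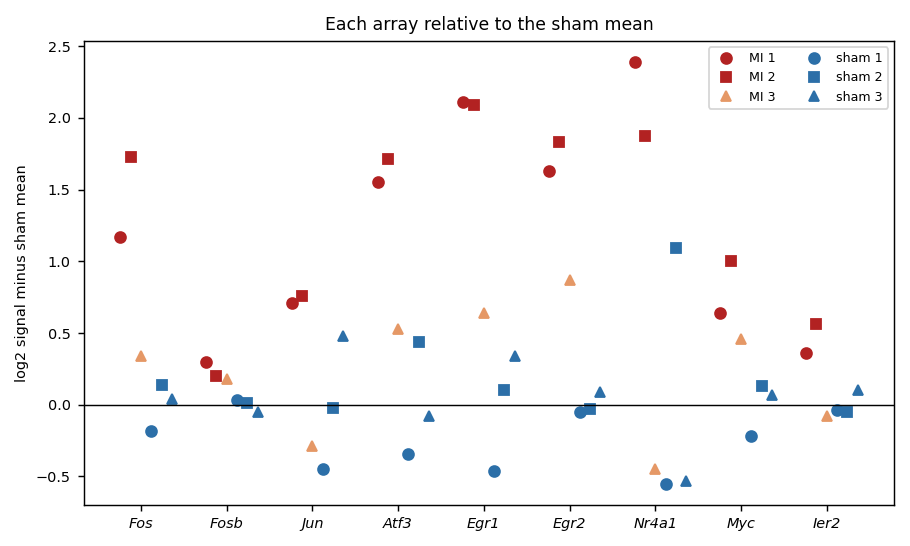
Log2 signal of each array minus the mean of the 3 sham arrays (vertical axis) for the 9 immediate early genes with a value (horizontal axis), with MI arrays in red and orange and sham arrays in blue, and marker shape giving the replicate. MI 3 (orange) lies 0.34 above the sham mean for Fos and 0.45 below it for Nr4a1, where MI 1 and MI 2 are the highest arrays.

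Other measures also set MI 3 apart. The median signal of 591 small nuclear RNA probe sets was 8.09, 7.64 and 10.02 in MI 1, 2 and 3 and 8.04, 7.17 and 7.07 in sham 1, 2 and 3, while the median over protein-coding probe sets was 7.10 to 7.16 in MI and 7.14 to 7.18 in sham. Of the activated fibroblast markers, 9 of 10 had a value and 7 were called higher in MI, against 2.97% of all probe sets tested. Their summed log2 signal was 17.41, 17.47 and 16.30 in MI and 14.73, 15.31 and 15.94 in sham. In sham that sum is mostly Acta2 (14.61, 15.21 and 15.88), whose difference of −0.58 was not called. The mean log2 signal of the 9 markers was 11.33, 11.26 and 10.32 in MI and 7.87, 8.23 and 8.26 in sham. Of the 10 macrophage markers, 5 were called higher, also against 2.97% of all probe sets tested. Their summed log2 signal was 15.11, 14.79 and 15.06 in MI and 12.83, 13.53 and 13.51 in sham. The macrophage sum is mostly that of Lyz2. Gene by gene, MI 3 was the lowest MI array for 8 of the 9 fibroblast and 8 of the 10 macrophage markers, against 37.5% of all probe sets tested. The mean log2 signal of the macrophage markers was 9.22, 9.39 and 8.85 in MI and 7.91, 8.40 and 8.46 in sham. The part of these cells and of the small nuclear RNA signal in the immediate early values was not tested.

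Fewer genes were called in the other lists of cell types and of handling stress. Of 10 heat shock genes of acute stress, 9 had a value, none of the 8 tested was called by limma, and the differences ran from −0.58 (Hspd1) to 0.63 (Hsp90aa1) with a median of −0.23. The mean log2 signal of the 9 was 10.71 to 10.94 in MI and 10.71 to 11.24 in sham, and their summed signal, 19.83 to 19.97 in MI and 19.90 to 19.96 in sham, is that of Hspa8, which was at the top of the scale. Of the 10 neutrophil markers, 9 had a mean below 5.12, the lowest reading of the brightest background control on any array. None of the 4 tested was called, and the summed log2 signal was 7.64 to 7.81 in MI and 7.52 to 7.64 in sham. None of the 10 cardiomyocyte markers was called by limma, but for 7 of the 10 the highest MI array was below the lowest sham array, against 16.8% of all probe sets tested. Their differences ran from −0.89 (Ryr2) to 0.19, and their summed log2 signal, 22.02 to 22.11 in MI and 22.12 to 22.15 in sham, is set by genes near the top of the scale. None of the 9 measured endothelial markers was called. The endothelial sum was 15.25 to 15.64 in MI and 15.51 to 15.70 in sham. Of the 10 smooth muscle and pericyte markers 1, Myocd, was called lower, against 3.64% of all probe sets tested. The sum of these markers was 16.57 to 16.84 in MI and 16.96 to 17.17 in sham. That sum is mostly that of Rgs5 and Abcc9, and the median difference of the list was −0.01. The mean log2 signal of the 10 overlapped, at 9.81 to 10.03 in MI and 9.94 to 10.05 in sham. Only 2 of 8 red blood cell markers had a value, with a sum of 8.18 to 8.37 in MI and 7.87 to 8.72 in sham.

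The rest of the pathway was described by 7 lists of 135 genes, of which 111 were tested. Of these, 6 were called higher, or 5.41%, and 5 lower, against 2.97% and 3.64% of all probe sets. The same shares are the background for the calls of each list below. The groups did not overlap, with MI above, for 20, or 18.0%, and with MI below for 21, against 15.0% and 16.8% of all probe sets. Without any 1 of MI 1, MI 2, sham 2 and sham 3, limma called 0 of these genes, without sham 1 it called 1, and without MI 3 it called 33, at a background of 6.84% of all probe sets called higher and 7.37% called lower.

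**Figure D5:**
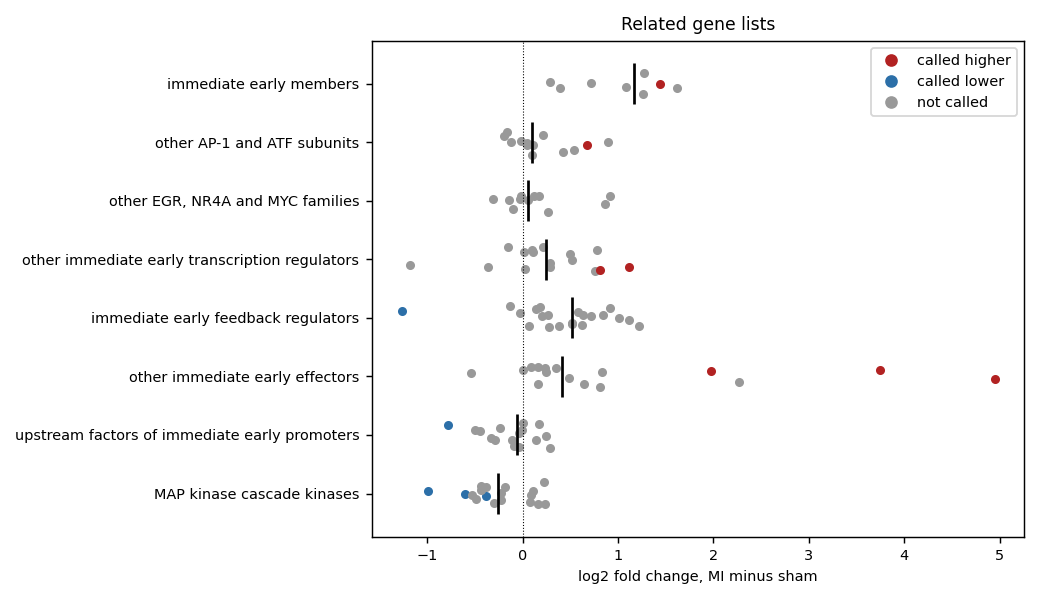
Difference in mean log2 signal, MI minus sham (horizontal axis), of each tested gene of the immediate early set and of the 7 related lists (rows), with the median of a list as a vertical bar and calls in colour. The median is 1.17 for the immediate early genes and between −0.27 and 0.52 for the other lists.

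Among other AP-1 and ATF subunits, 1 of 13 tested genes was called, and the median difference was 0.10. It was Maf, a large leucine zipper factor of macrophages and lens, with signals of 8.46, 8.78 and 8.50 in MI and 7.74, 7.93 and 8.06 in sham, a rise of 0.67 (SE 0.14, adjusted p = 0.043). The call was lost after median centring (adjusted p = 0.0526), after quantile normalization (0.051) and without the filter (0.0591). In the EGR, NR4A and MYC families and their partners none of 11 was called by limma with all arrays or without MI 3, and the median was 0.05. The largest differences there were those of Nr4a2, 0.91 (SE 0.40, adjusted p = 0.23), and Nr4a3, 0.86 (SE 0.47, adjusted p = 0.317).

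Of 16 other immediate early transcription regulators 2 were called higher, against 2.97% of all probe sets tested. Btg2, an antiproliferative cofactor, had 7.70, 7.49 and 7.21 in MI and 6.25, 6.34 and 6.49 in sham, a rise of 1.11 (SE 0.15, adjusted p = 0.0205). Klf6, a zinc finger factor, had 11.69, 11.72 and 11.52 in MI and 11.10, 10.64 and 10.75 in sham, a rise of 0.81 (SE 0.15, adjusted p = 0.0327), which was not called after quantile normalization (adjusted p = 0.0559). In both, the MI arrays differed by less than 0.5 on the log2 scale and lay above every sham array. The median of the list was 0.24, and MI 3 was the lowest MI array for 15 of the 16, against 37.5% of all probe sets tested.

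Feedback regulators, such as the dual-specificity phosphatases that switch MAP kinases off, had a median of 0.52. Only 1 of 21 was called, and in the other direction: Rgs2, which limits signalling by Gq-coupled receptors, had 7.95, 7.60 and 7.92 in MI and 9.63, 9.0 and 8.65 in sham, and it fell by 1.27 (SE 0.26, adjusted p = 0.0447, and 0.0617 without the filter). MI 3 was the lowest MI array for 18 of the 21, against 37.5% of all probe sets tested. Without MI 3, 8 were called higher and 1 lower, against 6.84% and 7.37% of all probe sets tested.

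Of 16 other immediate early effectors 3 were called higher, against 2.97% of all probe sets tested, and the median of the list was 0.41. Thbs1, thrombospondin 1, a matrix glycoprotein that activates TGF-β, had 14.12, 13.76 and 11.33 in MI and 7.40, 8.53 and 8.42 in sham, a rise of 4.95 (SE 0.77, adjusted p = 0.0246), or 30.9-fold. Ccn2, connective tissue growth factor, had 12.88, 13.10 and 11.02 in MI and 8.48, 8.50 and 8.78 in sham, a rise of 3.75 (SE 0.54, adjusted p = 0.0224), or 13.4-fold. In both, MI 3 was the lowest MI array, yet above the highest sham array by 2.80 for Thbs1 and by 2.24 for Ccn2. Ptgs2, the inducible cyclooxygenase, had 7.68, 7.64 and 6.28 in MI and 5.12, 5.49 and 5.10 in sham, a rise of 1.97 (SE 0.39, adjusted p = 0.0419, and 0.0576 without the filter). Its 3 sham arrays read below the highest background control, and against that control the MI mean was at least 2.70-fold higher. Thbs1 and Ccn2 are also made in quantity by fibroblasts of scar tissue, whose marker values are given above.

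The factors and kinases that act on immediate early promoters did not move upwards as lists. Of 16 upstream factors, SRF cofactors and CREB family genes among them, the median was −0.07 and 1 was called, Myocd, the SRF coactivator of muscle genes. It had 9.87, 9.78 and 9.89 in MI and 10.64, 10.70 and 10.56 in sham, and it fell by 0.79 (SE 0.09, adjusted p = 0.0147). Of 18 kinases of the MAP kinase cascades the median was −0.27 and 3 were called, each lower in MI, against 3.64% of all probe sets tested. Mapk10, which encodes JNK3, fell by 0.99 (SE 0.19, adjusted p = 0.0391), Mapk14, which encodes p38α, by 0.61 (SE 0.10, adjusted p = 0.0301), and Map2k4, a kinase of JNK, by 0.39 (SE 0.08, adjusted p = 0.0468). Without the filter, Mapk10 (adjusted p = 0.053) and Map2k4 (0.0642) were not called, nor was Map2k4 after quantile normalization (0.0509) or with the trend and robust settings (0.0623). For 11 of the 18 kinases the highest MI array was below the lowest sham array, against 16.8% of all probe sets tested. These are levels of transcripts, and kinase activity was not measured.

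The genes whose pattern over the 6 arrays was most like that of Fos were found by subtracting the mean of each gene and taking the root mean square difference from Fos over 17491 tested genes. The 5 nearest were Trf (0.09), which encodes transferrin, Cd72 (0.10), a receptor of B cells and macrophages, Osmr (0.10), the oncostatin M receptor, Gm9791 (0.11), a predicted gene, and Tnfaip6 (0.13), a hyaluronan-binding protein. Osmr, for example, read 10.23, 10.61 and 9.50 in MI and 8.91, 9.04 and 9.13 in sham, with MI 2 highest and MI 3 lowest of the MI arrays as in Fos. None of the 5 was called by limma, with adjusted p between 0.074 and 0.137. Among the immediate early genes Atf3 was the nearest, at rank 87 (0.21), followed by Egr2 at rank 164 (0.24), Myc at 392 (0.32), Egr1 at 637 (0.38), Jun at 1013 (0.44) and Ier2 at 1256 (0.47), and Nr4a1 was at rank 10747 (0.76). This is a likeness over 6 arrays that share 2 groups, and the measure also depends on the size of the difference. Fos itself read at background in all 3 sham arrays and in MI 3, so its pattern over those arrays is not firm.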

How the data were processed

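The authors made the deposited log2 signals from Affymetrix mouse transcriptome arrays 1.0 (biotin-labelled cDNA from total RNA) by RMA with SKETCH quantile normalization in EC 2.0, Affymetrix Expression Console. The low-signal filter of the methods has no stated threshold. RMA draws arrays to 1 distribution, so a shift shared by most transcripts would not show. No genome build for the array annotation was found in the sources used here. The table held 0 columns of other samples.

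Groups came from the sample labels, 3 MI and 3 control (ctl), and the methods describe the controls as sham-operated. Of 72688 probe sets, 6732 controls were left out. Of the other 65956, 30638 had 1 symbol, 2176 several and 33142 none. Probe sets with a mean at or above the 50th percentile (4.36) were tested with limma 3.58.1 in R 4.3.3 (lmFit, eBayes, two-sided, no covariate). For arrays, precision is limited by their number. The script was tested on simulated data. Summaries, motif searches and plots used Python 3.11.15, pandas 2.3.3, numpy 2.4.6 and matplotlib 3.10.9.

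Members and lists were chosen with earlier results of these data known. The genes named are every member, up to 6 called genes each way per pathway list or else the 2 largest differences, and the 5 genes most like Fos. Summed list levels add linear signals. Fosl1, Egr3 and other listed genes were counted only. Alternatives were no filter, a 75th percentile filter, the methods' t-test, limma with trend and robust settings, array weights, 2 rescalings, a replicate block, the mean over probe sets and leaving out arrays.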

Additional observations from a re-analysis of the deposited data

How the results depend on the processing

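Every difference of the 8 tested genes stayed positive under each alternative run. Against 1 gene called, there were 0 with the 75th percentile filter, where 4 were tested and Egr2 was not. The methods' t-test gave 0, with 4 genes at an unadjusted p under 0.05, as were 7422 of all 32979 probe sets. Array weights (MI 3 weighted 0.228, MI 1 5.63) gave 7, with 5165 of the 32979 probe sets called higher and 5595 lower. Without MI 3 and sham 1, chosen after seeing the data, there were 5, with 2159 of the 32979 called higher and 2273 lower. Leaving out each array in turn gave 0 to 5. Against 11 called genes of the related lists, there were 6 with no filter, 2 with the t-test, 56 with array weights, 31 without MI 3 and sham 1, and 0 to 33 leaving out each array. With the replicate block, limma called 0 of the immediate early genes (5 at an unadjusted p under 0.05), 0 of the related genes and 0 of all probe sets (7078 at an unadjusted p under 0.05). Deviations from the group mean correlated at r = −0.287, 0.352 and −0.374 for arrays of the same number. For arrays of different numbers, r ran from −0.505 to 0.499. Deviations from a mean of 3 arrays are tied to each other, so these values cannot decide whether the numbers mark a pairing.

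Over all probe sets, 980 were called higher and 1200 lower, against 114 and 158 with the t-test, 5165 and 5595 with array weights, 0 to 2257 and 0 to 2430 leaving out each array, and 2159 and 2273 without MI 3 and sham 1. The Egr2 adjusted p was 0.000696 to 0.122 over its alternatives. With 3 arrays a group, a single array decides these counts. Fos, Fosb and the sham level of Egr2 lie near background, as do 2 of the 3 sham arrays of Myc.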
